A study of Homo sapiens with 12 samples.

Results

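The albumin gene family was followed in HepG2 cells, an established human hepatoma line, as the transcripts of its 4 members ALB (albumin), AFP (alpha-fetoprotein), AFM (afamin) and GC (vitamin D-binding protein). The members were taken by gene symbol from the 28256 symbols of the deposited table, and where a symbol had several RefSeq transcripts the transcript with most counts summed over the 12 libraries was used. RNA was sequenced in 12 libraries, 3 in each of 4 groups. Before treatment all groups were held for 24 h in charcoal-stripped serum, and treatment lasted 24 h, with dexamethasone together with KLA (DexKLA), with dexamethasone alone (Dex, 50 nM), with KLA alone (labelled dose 100 ng/µl) or with the vehicle (DMSO, 0.1%). The genotype of all cells is labelled WT. Dexamethasone is a synthetic steroid that acts through the glucocorticoid receptor, and KLA is not spelled out in the labels. Whether the treated cells also received DMSO, and whether replicates came from separate cultures, is not stated. The p-values therefore measure the spread between libraries alone, and that spread may be technical.

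In these cells AFP transcripts were higher in every library with Dex than in every library without it. The share of all genes that separate in this way was not counted. ALB differed less between the groups and passed the test in no comparison. AFM was present at low counts and was about as high with DexKLA as with Dex. GC was close to 0 throughout.

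The proteins of this family are secreted by hepatocytes into the blood and are built from related folded domains. Albumin is the main carrier of fatty acids, hormones and many drugs in adult plasma. Alpha-fetoprotein is its fetal counterpart, made in the yolk sac and the fetal liver, switched down after birth, and made again by many liver tumours, where it serves as a serum marker. Afamin binds vitamin E, and vitamin D-binding protein carries vitamin D metabolites and binds actin released from damaged cells.

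The genes lie on chromosome 4. On hg38 the ALB transcript (NM_000477) ran from 73404287 to 73421482, the AFP transcript (NM_001134) from 73436221 to 73456174 and the AFM transcript (NM_001133) from 73481745 to 73504001, all on the plus strand. These coordinates cover the whole transcribed span, exons and introns together. ALB ended 14.7 kb before AFP began, and AFP ended 25.6 kb before AFM began. The GC transcript (NM_001204306), on the minus strand from 71741694 to 71805520, lay 1600 kb from ALB. The strand used in counting is not given in the sources used here. In the GENCODE v29 annotation no other gene overlapped ALB, AFP or AFM, and RNA5SP163, an rRNA pseudogene on the same strand, overlapped GC.

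The 250 bases before the start site of ALB, AFP and AFM are shown because these adjacent genes had different levels, and AFP and ALB changed unequally with Dex. They come from RefSeq (GRCh38.p14, plus strand) and span chr4:73404037-73404286, chr4:73435971-73436220 and chr4:73481495-73481744, and the table used here matched 3 of the 4 members, all but GC. Capitals mark matches on either strand to the HNF1 site GTTAAT, the C/EBP core TTGCNNAA, the CCAAT box CCAAT and the TATA box TATAAA.
ALB: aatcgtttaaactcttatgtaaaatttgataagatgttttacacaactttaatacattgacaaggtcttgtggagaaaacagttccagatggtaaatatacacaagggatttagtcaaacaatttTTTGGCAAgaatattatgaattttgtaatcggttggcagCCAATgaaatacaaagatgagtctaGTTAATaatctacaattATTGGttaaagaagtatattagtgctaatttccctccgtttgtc
AFP: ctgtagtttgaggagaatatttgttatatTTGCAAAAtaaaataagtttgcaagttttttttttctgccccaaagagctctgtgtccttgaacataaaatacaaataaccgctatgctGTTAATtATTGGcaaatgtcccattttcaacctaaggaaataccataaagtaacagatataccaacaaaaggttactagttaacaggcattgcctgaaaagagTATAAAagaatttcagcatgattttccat
AFM: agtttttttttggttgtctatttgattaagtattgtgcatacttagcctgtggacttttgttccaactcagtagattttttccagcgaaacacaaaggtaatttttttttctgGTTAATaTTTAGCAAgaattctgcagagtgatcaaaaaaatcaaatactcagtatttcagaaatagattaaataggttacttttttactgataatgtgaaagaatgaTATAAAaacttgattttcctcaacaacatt

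All 3 windows held 1 GTTAAT, a short form of the sequence bound by the hepatocyte factor HNF1. It lay 61 to 56 bases before the start site in ALB, 132 to 127 in AFP and 137 to 132 in AFM. Of 35116 windows of the same length in the RefSeq table, 6.23% held it. Each window also held 1 C/EBP core, at 125 to 118 bases in ALB, 221 to 214 in AFP and 130 to 123 in AFM, against 9.05% of all windows. TATAAA was found in AFP at 29 to 24 bases and in AFM at 30 to 25, but not in the ALB window, and 10.7% of all windows held it. CCAAT boxes were found at 86 to 82 and 44 to 40 bases in ALB and at 125 to 121 in AFP, and 32.0% of all windows held one. No marked match overlapped another. Searched on both strands, the glucocorticoid receptor hexamer AGAACA (12.4% of all windows), the FOXA site TGTTTAC (2.98%), and the full palindromes of the glucocorticoid receptor (0.00285%) and of HNF1 (0.0057%) had no match in these 3 windows. The short sites are contained in the palindromes, and a match or its absence describes the letters of these windows only.

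Total counts over genes ran from 4514613 to 11484487 with DexKLA, from 3642689 to 17782048 with Dex, from 15998665 to 20933489 with KLA and from 3317739 to 5277462 with DMSO, so every KLA library was deeper than every DMSO library. DexKLA replicate 3 and KLA replicate 3 stood apart from their groups. The chi-square per degree of freedom over genes was 19.3 and 10.6 for DexKLA replicate 3 against replicates 1 and 2, and 3.13 between those. It was 23.3 and 24.1 for KLA replicate 3 against replicates 1 and 2, and 5.98 between those. Libraries also differed in how their counts trended with transcript length, with Spearman's rho across genes between −0.534 (Dex replicate 2) and 0.395 (DMSO replicate 3). FKBP5, a glucocorticoid receptor target, was measured as CPM (a gene's count relative to its library's total) scaled between libraries by the TMM method. It ranged from 32.9 to 48.5 with DexKLA, from 35.6 to 39.5 with Dex, from 15.4 to 24.5 with KLA and from 22.5 to 29.2 with DMSO. The groups with and without Dex thus did not overlap, a separation whose share among all genes was not counted. In the edgeR test described below, its log2 change was 0.55 ± 0.17 with Dex over DMSO (SE, adjusted p = 0.0857), which was not called. It was 1.04 ± 0.16 with DexKLA over KLA (adjusted p = 0.000866) and −0.42 ± 0.17 with KLA over DMSO (adjusted p = 0.103). All 7 hepatocyte markers were above 1 CPM, here without TMM scaling. Their summed level on this unscaled measure ranged from 17400 to 19100 CPM with DexKLA, from 19000 to 20100 with Dex, from 14400 to 18300 with KLA and from 20600 to 24600 with DMSO, a difference whose part in the results below was not tested. Of the markers of other cells, 1 of 5 fibroblast, 1 of 4 endothelial, 1 of 4 leukocyte and 1 of 3 cholangiocyte genes was above 1 CPM on average. These were PDGFRB, PECAM1, CD68 and KRT19. The summed levels of the lists were 21.0 to 30.6, 2.88 to 5.49, 41.6 to 54.8 and 95.5 to 149 CPM in the same order. COL1A2, KDR, CD3E and CFTR were at 0 in every library.

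AFP, the fetal plasma carrier and tumour marker, changed most clearly. Its level, as CPM scaled between libraries by TMM (the trimmed mean of M values), was 41300, 39600 and 26800 in DexKLA replicates 1 to 3. With Dex it was 33100, 31900 and 35300. With KLA it was 22400, 21800 and 20900, against 13700, 15800 and 16300 with DMSO. The lowest library with Dex, DexKLA replicate 3, was thus above the highest without it. Group means were 35900 ± 7910 CPM with DexKLA, 33500 ± 1740 with Dex, 21700 ± 772 with KLA and 15200 ± 1380 with DMSO (SD, n = 3 each). In this order the ranges of DexKLA and Dex overlapped, while those of Dex and KLA and those of KLA and DMSO did not. The share of all genes whose groups separate in these ways was not counted.

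**Figure D1:**
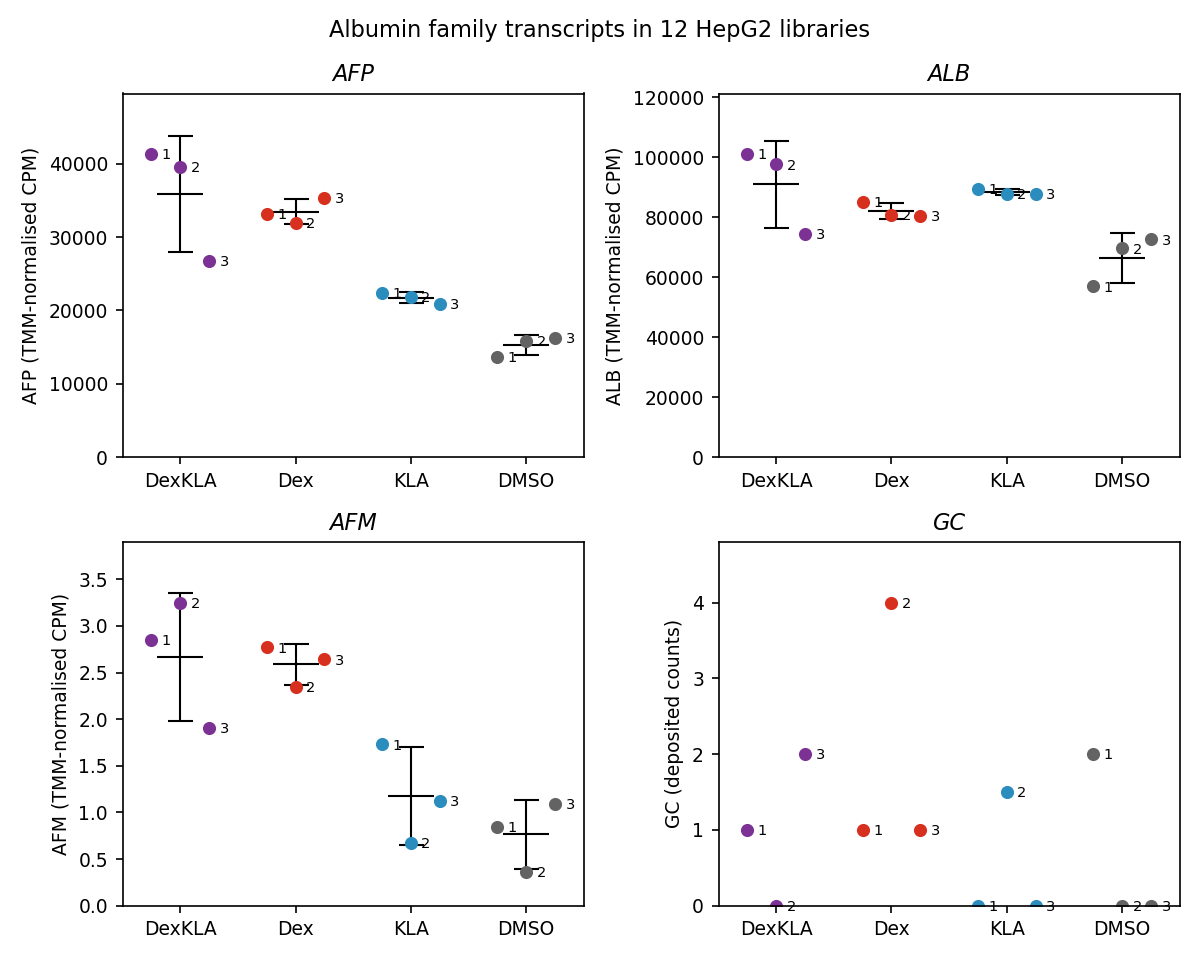
Level of AFP, ALB and AFM (TMM-normalised CPM) and deposited counts of GC in each of the 12 libraries. Points are libraries with their replicate numbers, horizontal lines are group means and bars are SD (n = 3). All 6 libraries with Dex lie above all 6 libraries without it for AFP and AFM, a separation whose share among all genes was not counted. The deposited counts of AFM are 2.5 to 41, and those of GC are at most 4 in every library.

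Genes were compared by the quasi-likelihood test of edgeR. P-values were adjusted (Benjamini-Hochberg) over 13166 tested genes, with a call at an adjusted p under 0.05. ALB, AFP and AFM passed its filter on low counts and GC did not. AFP rose with Dex over DMSO by 1.13 ± 0.15 on the log2 scale (SE, adjusted p = 0.00019), a 2.19-fold change with a 95% interval of 0.82 to 1.45 (log2). It was the only member called in this comparison, in which 2.05% of all genes were called (1.22% higher and 0.835% lower) and the median of all genes was −0.01. By size of rise AFP ranked 54 among the 13166 genes. The call held in all 25 alternative fits, among them the 6 shallower libraries alone, where the change was 1.17. In bulk RNA, a change in RNA per cell and a change in the make-up of the culture cannot be told apart.

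With KLA alone, AFP rose over DMSO by 0.51 ± 0.15 (adjusted p = 0.0304), a 1.43-fold change with an interval of 0.20 to 0.83. In this comparison 13.7% of all genes were called (7.78% higher and 5.95% lower), and AFP was again the only member called. That background was unstable: the 1807 genes called became 566 without KLA replicate 3, 5, 932 and 919 without DMSO replicate 1, 2 and 3, and 4 with depth class as a covariate, and with library size alone 23.7% of the calls were higher, against 56.7%. Leaving out any one of the 6 libraries of these groups ended the call. The change was then 0.49, 0.51 and 0.54 (adjusted p = 0.0653, 0.0539 and 0.0586) without KLA replicate 1, 2 and 3, and 0.44, 0.54 and 0.56 (adjusted p = 0.147, 0.0681 and 0.0644) without DMSO replicate 1, 2 and 3. No depth class held both KLA and DMSO libraries, so no within-class value exists. With depth class as a covariate the change was 0.67 (adjusted p = 0.177), and over all 24 alternative fits the adjusted p ranged from 0.000833 to 0.177.

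With both agents, AFP rose over DMSO by 1.24 ± 0.15 (adjusted p = 7.48e-05), a 2.36-fold change. AFP and AFM were the members called here, among 4.22% of all genes (2.84% higher and 1.38% lower), in a comparison that shares its DMSO libraries with the others. AFM passed the filter on low counts through the groups in which it was high, so its call is not independent of its change. The AFM call held in 10 of 22 alternative fits. Over KLA alone, DexKLA raised AFP by 0.72 ± 0.15 (adjusted p = 0.0203), a 1.65-fold change with an interval of 0.41 to 1.04. No other member was called there, and 0.653% of all genes were (0.441% higher and 0.213% lower). All 3 DexKLA libraries were above all 3 KLA libraries, and without DexKLA replicate 3 the change was 0.90 (adjusted p = 4.58e-05). It was 0.61 and 0.65 (adjusted p = 0.0896 and 0.142) without DexKLA replicate 1 and 2, and 0.75, 0.73 and 0.70 (adjusted p = 0.0617, 0.0756 and 0.0513) without KLA replicate 1, 2 and 3. These 5 omissions ended the call, and over all 25 alternative fits the adjusted p ranged from 3.95e-06 to 0.852.

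Adding KLA to Dex changed AFP by 0.10 ± 0.15 (adjusted p = 0.887), with an interval of −0.21 to 0.42. In DexKLA versus Dex edgeR called no gene (0%), 935 genes had an unadjusted p under 0.05, and DESeq2 also called 0. The interaction, the change with Dex in the presence of KLA minus that without KLA, was −0.41 ± 0.21 for AFP (adjusted p = 0.260), with an interval of −0.85 to 0.03. No member was called for the interaction, and 5 of all genes were (0.038%, with 0.0304% higher and 0.0076% lower). This count of 5 was 705 with DESeq2, 230 with library size alone and between 0 (without DMSO replicate 1) and 676 (without DexKLA replicate 1) with 1 library left out. ALB had an interaction of −0.26 ± 0.22 (adjusted p = 0.491) and AFM one of −0.61 ± 0.63 (adjusted p = 0.593).

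A shorter AFP transcript of the deposited table (NM_001354717), with 94.1% of the length of the one used, held 88.5% to 90.8% of its counts in every library. This proportion was thus nearly the same in all groups.

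ALB, the adult plasma carrier, was the most abundant member in every group. In DexKLA replicates 1 to 3 it was at 101000, 97600 and 74400 CPM, and in the Dex libraries at 85000, 80700 and 80400. With KLA it was at 89500, 87700 and 87800, against 56900, 69600 and 72600 with DMSO. The Dex and KLA libraries were all above the DMSO libraries, and so were the DexKLA libraries, of which replicate 3 was near the highest DMSO value. Group means were 91000 ± 14500 CPM with DexKLA, 82100 ± 2570 with Dex, 88300 ± 972 with KLA and 66300 ± 8300 with DMSO (SD, n = 3 each). In order of mean, DexKLA and KLA overlapped, KLA and Dex did not, and Dex and DMSO did not. How many of all genes separate between groups in these ways was not counted.

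None of these differences in ALB passed the test. The change was 0.31 ± 0.15 with Dex over DMSO (adjusted p = 0.261), with an interval of −0.01 to 0.62. It was 0.41 ± 0.15 with KLA over DMSO (adjusted p = 0.0712), with an interval of 0.10 to 0.73. With DexKLA over DMSO it was 0.46 ± 0.15 (adjusted p = 0.0885), with an interval of 0.14 to 0.77. Both intervals lie above 0 but are not adjusted over the tested genes. Without DexKLA replicate 3 the changes with KLA and with DexKLA were called, at 0.41 (adjusted p = 0.00696) and 0.58 (adjusted p = 0.00224). Over all 24 alternative fits the adjusted p ranged from 0.00631 to 0.286 for KLA and from 0.00224 to 0.392 for DexKLA. Where KLA was present, Dex changed ALB by 0.04 ± 0.15 (adjusted p = 0.938), with an interval of −0.27 to 0.36, and where Dex was present, KLA changed it by 0.15 ± 0.15 (adjusted p = 0.839).

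**Figure D2:**
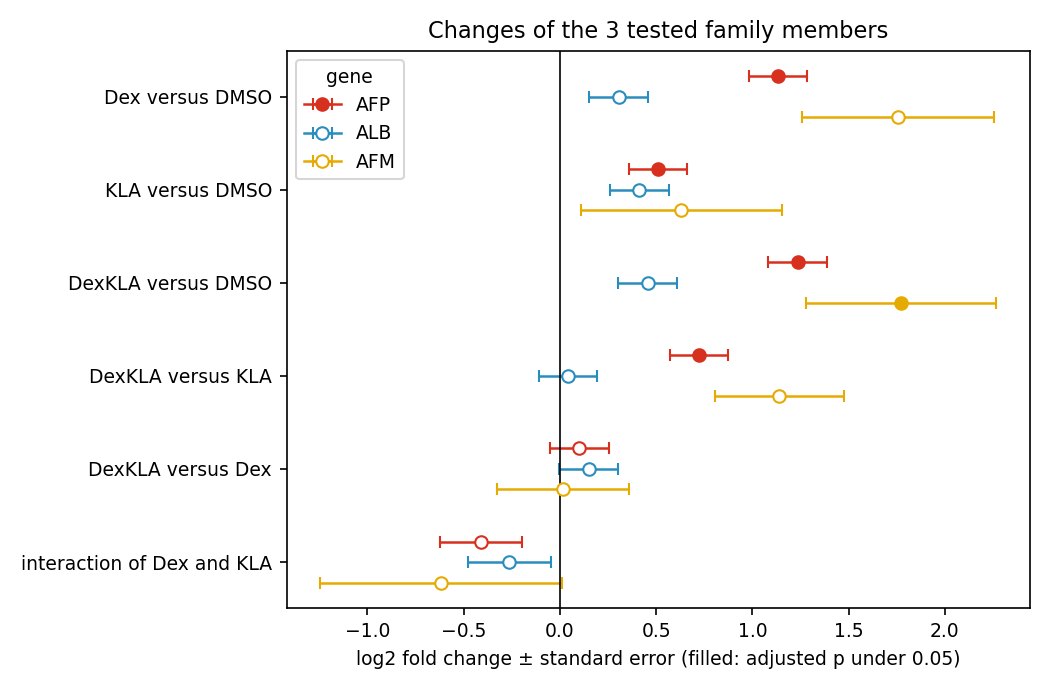
Log2 fold change of AFP, ALB and AFM in the 6 comparisons, with standard error bars from edgeR's quasi-likelihood fit to all 12 libraries. Filled points passed an adjusted p under 0.05. AFP is filled in the 4 comparisons above the 2 lowest rows, AFM in DexKLA versus DMSO alone and ALB in none.

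The balance between the fetal and the adult protein's transcripts separated the libraries by Dex. Within a library this ratio needs no scaling between libraries. AFP counts per 100 ALB counts were 40.9, 40.6 and 36.0 in DexKLA replicates 1 to 3, and the Dex libraries had 38.9, 39.5 and 44.0. They were 25.1, 24.9 and 23.8 with KLA, against 24.0, 22.7 and 22.4 with DMSO. No library with Dex was below 36.0 and none without it was above 25.1. Means were 39.2 ± 2.75 with DexKLA, 40.8 ± 2.79 with Dex, 24.6 ± 0.70 with KLA and 23.0 ± 0.85 with DMSO (SD, n = 3 each). Per transcript length the means were 36.9, 38.4, 23.2 and 21.7 in the same order of groups.

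On the log2 scale, Dex shifted the ratio of AFP to ALB by 0.75, as the mean of 0.67 in the presence of KLA and 0.82 in its absence. A two-sided exact permutation test within the libraries with and without KLA gave p = 0.005 (n = 12), the smallest its 400 arrangements can give. Leaving out each library in turn gave 0.72 to 0.77, with the exact permutation p at 0.005 each time, again the smallest that the 200 arrangements of 11 libraries can give. KLA shifted the ratio by 0.02 (exact permutation test, two-sided, p = 0.73, n = 12), with values of −0.06 in the presence of Dex and 0.09 in its absence. Adjusted over these 2 tests, the p-values were 0.01 and 0.73. A change in this ratio shows unequal change of the transcripts, and not which of them changed.

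**Figure D3:**
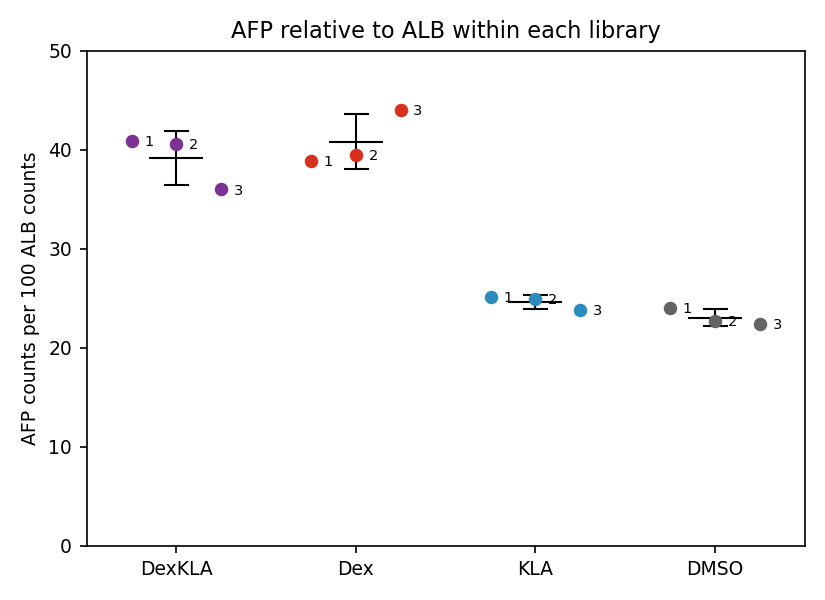
AFP counts per 100 ALB counts in each of the 12 libraries, with replicate numbers, group means and SD (n = 3). The 6 libraries with Dex lie between 36.0 and 44.0 and the 6 without it between 22.4 and 25.1.

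AFP and ALB together took a large part of all gene counts. Their share was 13.4%, 13.1% and 10.6% in DexKLA replicates 1 to 3, and it was 11.7%, 11.1% and 11.4% with Dex. The KLA libraries had 10.9%, 10.8% and 10.5% with KLA, against 7.57%, 9.03% and 9.24% with DMSO. Every treated library was above every DMSO library. The share of AFP alone averaged 3.50% ± 0.592 with DexKLA, 3.30% ± 0.181 with Dex, 2.12% ± 0.0964 with KLA and 1.61% ± 0.122 with DMSO (SD, n = 3 each).

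AFM, the vitamin E carrier, lies next to AFP but was far less abundant. Deposited counts were 25, 14.5 and 23 in the DexKLA libraries (replicates 1 to 3 throughout), 10, 41 and 12.5 in the Dex libraries, 27, 14 and 19.5 in the KLA libraries and 3, 2.5 and 5 in the DMSO libraries. As TMM-normalised CPM these were 2.85, 3.25 and 1.91 with DexKLA and 2.77, 2.35 and 2.64 with Dex. They were 1.73, 0.675 and 1.12 with KLA, against 0.844, 0.358 and 1.09 with DMSO. The libraries with Dex did not overlap those without it, and the KLA and DMSO libraries overlapped. How many of all genes separate by Dex in this way was not counted. Because AFM passed the filter on low counts through the groups in which it was high, its place among the tested genes is not independent of its change. Means were 2.67 ± 0.687 CPM with DexKLA, 2.58 ± 0.215 with Dex, 1.17 ± 0.529 with KLA and 0.764 ± 0.372 with DMSO (SD, n = 3 each).

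With DexKLA over DMSO, AFM had a fitted difference of 1.77 ± 0.49 (adjusted p = 0.0447). Because AFM was tested only through the groups in which it was high, the adjusted p-values given here are not independent of its change. The pooled counts, each over its group's pooled total, had a ratio of 3.19. The exact 95% interval of this ratio was 1.62 to 6.98 and covers counting error only. With Dex over DMSO the fitted difference was 1.76 ± 0.50 (adjusted p = 0.0609) and the pooled ratio 3.15, with an interval of 1.60 to 6.88. Both rest on 10 pooled counts in the DMSO group. DexKLA over KLA gave 1.14 ± 0.34 (adjusted p = 0.181) and a pooled ratio of 2.23 (1.54 to 3.23). KLA over DMSO gave 0.63 ± 0.52 (adjusted p = 0.435), and DexKLA over Dex gave 0.02 ± 0.34 (adjusted p = 0.995). The call with DexKLA was lost without any 1 of DexKLA replicates 1 and 2 (1.66 each) and DMSO replicates 1, 2 and 3 (1.85, 1.36 and 2.18). It was also lost without any 1 of the 3 Dex libraries (1.77 each), which enter only the shared estimate of spread. A call with Dex over DMSO appeared without any 1 of the 3 KLA libraries (1.76, 1.75 and 1.75) and without DexKLA replicate 3 (1.76).

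GC, the vitamin D carrier, had 12.5 counts in all 12 libraries together. Its deposited counts were 1, 0 and 2 in the DexKLA libraries, 1, 4 and 1 in the Dex libraries, 0, 1.5 and 0 in the KLA libraries and 2, 0 and 0 in the DMSO libraries. In the 5 libraries at 0, a count of 0 allows up to 0.161 to 0.680 CPM (3 counts of the library total, counting error only). As TMM-normalised CPM, GC ranged from 0 to 0.166 with DexKLA, from 0.220 to 0.277 with Dex, from 0 to 0.0965 with KLA and from 0 to 0.562 with DMSO. The Dex libraries thus lay above the DexKLA and KLA libraries and inside the range of the DMSO libraries, but no library had more than 4 counts. No fold change is given, and a difference in GC was not detectable at this depth.

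Per kilobase of transcript, the levels of the members kept 1 order in every group. ALB averaged 40100 ± 6370 CPM per kb with DexKLA, 36200 ± 1130 with Dex, 38900 ± 429 with KLA and 29300 ± 3660 with DMSO. AFP followed with 14900 ± 3280, 13900 ± 724, 9020 ± 321 and 6330 ± 571 CPM per kb in DexKLA, Dex, KLA and DMSO. AFM was at 1.35 ± 0.347, 1.30 ± 0.109, 0.592 ± 0.267 and 0.386 ± 0.188 CPM per kb in the same groups (SD, n = 3 each). GC stayed at or below an average of 0.132 CPM per kb in every group.

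Genes around the cluster were compared as well. Within 500 kb of the outermost members lay 14 other genes, of which 3 passed the filter on low counts. These were COX18 (mitochondrial membrane protein insertion) and ANKRD17 (an ankyrin repeat protein) on the GC and ALB side of AFP and CXCL8 (the chemokine interleukin 8) on the AFM side. With Dex over DMSO none of the 3 was called by edgeR or DESeq2, where edgeR called 2.05% of all genes, and 1 had an unadjusted p under 0.05. Their changes were −0.11 ± 0.14 for COX18 (adjusted p = 0.686), −0.36 ± 0.15 for ANKRD17 (adjusted p = 0.177) and −0.02 ± 0.44 for CXCL8 (adjusted p = 0.989). With DexKLA over KLA 0 were called by edgeR or DESeq2, where edgeR called 0.653% of all genes. There 0 had an unadjusted p under 0.05, against 1386 of all genes, and the changes of the 3 were 0.04, 0.20 and −0.26. With KLA over DMSO ANKRD17 fell by 0.46 ± 0.15 (adjusted p = 0.0392), at 66.3 ± 11.6 CPM with KLA and 91.5 ± 5.07 with DMSO (SD, n = 3 each), a call that was lost without KLA replicate 1 or 3, Dex replicate 3 or any 1 of the 3 DMSO libraries. CXCL8 had 2.55 ± 0.605 CPM with KLA and 1.29 ± 0.155 with DMSO, a change of 0.94 ± 0.36 (adjusted p = 0.0761). With KLA over DMSO 7.78% of all genes were called higher and 5.95% lower.

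**Figure D4:**
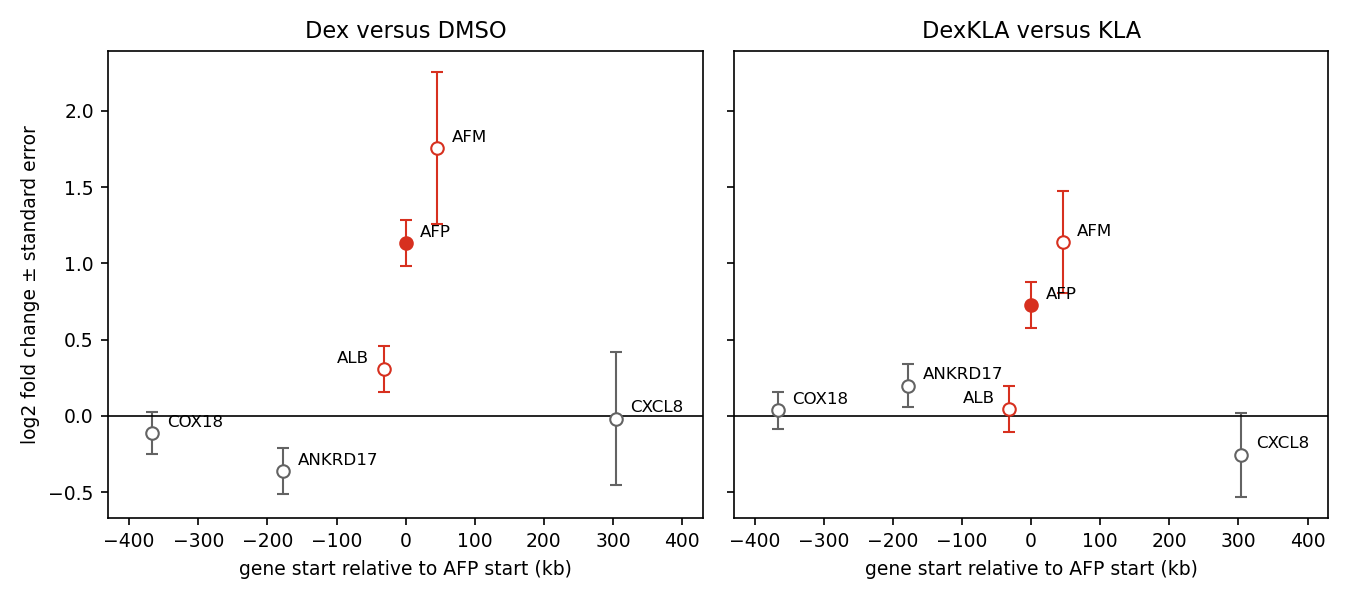
Log2 fold change with standard error of the tested genes within 500 kb of the family members, against the distance of their start from that of AFP in kb, for Dex versus DMSO and DexKLA versus KLA. Red points are ALB, AFP and AFM, grey points are COX18, ANKRD17 and CXCL8, and AFP is the only filled (called) point in each panel.

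Of 25 transcription factors known to act on AFP or ALB, 24 were tested. With Dex over DMSO 1 rose, 1 fell and 22 did not pass, where 1.22% of all genes rose and 0.835% fell, and the median was −0.17 against −0.01 for all genes. CEBPD (C/EBP delta) rose by 0.76 ± 0.16 (adjusted p = 0.0175), at 44.0 ± 4.59 CPM with Dex and 25.9 ± 1.91 with DMSO (SD, n = 3 each). CEBPA (C/EBP alpha, a driver of the hepatocyte programme) fell by 0.85 ± 0.12 (adjusted p = 0.000471), at 187 ± 12.9 CPM with Dex and 337 ± 40.8 with DMSO. The CEBPA call held without each of the 12 libraries, and that of CEBPD in 8 of those 12 fits, lost without Dex replicate 2 or any 1 of the 3 DMSO libraries. With DexKLA over DMSO the same 2 genes were called in the same directions, CEBPD at 0.67 and CEBPA at −0.92. The third called gene, NR2F2 (the orphan receptor COUP-TFII), fell by 0.59 ± 0.15, and the median of the list was −0.24, where 2.84% of all genes rose and 1.38% fell. Here CEBPD and NR2F2 lost their call without DexKLA replicate 1 or 2 or any 1 of the 3 DMSO libraries.

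With KLA over DMSO 0 of the 24 rose and 6 fell, where 7.78% of all genes rose and 5.95% fell, and the median was −0.25 against −0.02 for all genes. CEBPA fell by 0.45 ± 0.12 (adjusted p = 0.0201), HNF4A by 0.38 ± 0.10, FOXA1 by 0.40 ± 0.11 and NR2F2 by 0.48 ± 0.14, and leaving out 1 library gave between 0 and 6 falls, with 0 without KLA replicate 3 and without DMSO replicate 1. With DexKLA over KLA edgeR called 0 of the 24, where it called 0.653% of all genes. There 2 had an unadjusted p under 0.05 and 1 was called by DESeq2, and the median was 0.01. ZHX2 and ZBTB20, which repress AFP after birth in mice, had −0.30 ± 0.16 and −0.21 ± 0.31 with Dex over DMSO. The glucocorticoid receptor gene NR3C1 had −0.28 ± 0.18 there (adjusted p = 0.382).

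Other oncofetal genes, which like AFP are expressed in fetal liver and in liver tumours, had no call in the upward direction in these 4 comparisons, and 11 of 13 were tested. Of all genes, 1.22%, 7.78% and 2.84% were called higher with Dex, KLA and DexKLA over DMSO, and 0.441% with DexKLA over KLA. At these shares, 0 rises among 11 genes do not set the list apart from all genes. With Dex over DMSO edgeR called 0 of them, 5 had an unadjusted p under 0.05 and DESeq2 called 0, with a median of −0.08. GPC3 (glypican 3, another liver tumour marker) had −0.08 ± 0.10 there and IGF2 −0.04 ± 0.12. With KLA over DMSO IGF2BP1 (an RNA-binding protein) fell by 0.45 ± 0.12 (adjusted p = 0.0179), a call lost without KLA replicate 3 or DMSO replicate 1. It was the only edgeR call of the list there, where 5.95% of all genes fell. In this comparison 6 of the 11 had an unadjusted p under 0.05 and DESeq2 called 5. Leaving out 1 library gave 0 to 1 rises and 0 to 3 falls. With DexKLA over DMSO DLK1 (a Notch-related membrane protein of hepatoblasts) fell by 0.54 ± 0.11 (adjusted p = 0.0127), a call lost without DexKLA replicate 1 or DMSO replicate 1. There 1.38% of all genes fell, and 2 of the 11 had an unadjusted p under 0.05 and DESeq2 called 1. With DexKLA over KLA edgeR called 0, with 2 at an unadjusted p under 0.05 and 1 called by DESeq2.

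**Figure D5:**
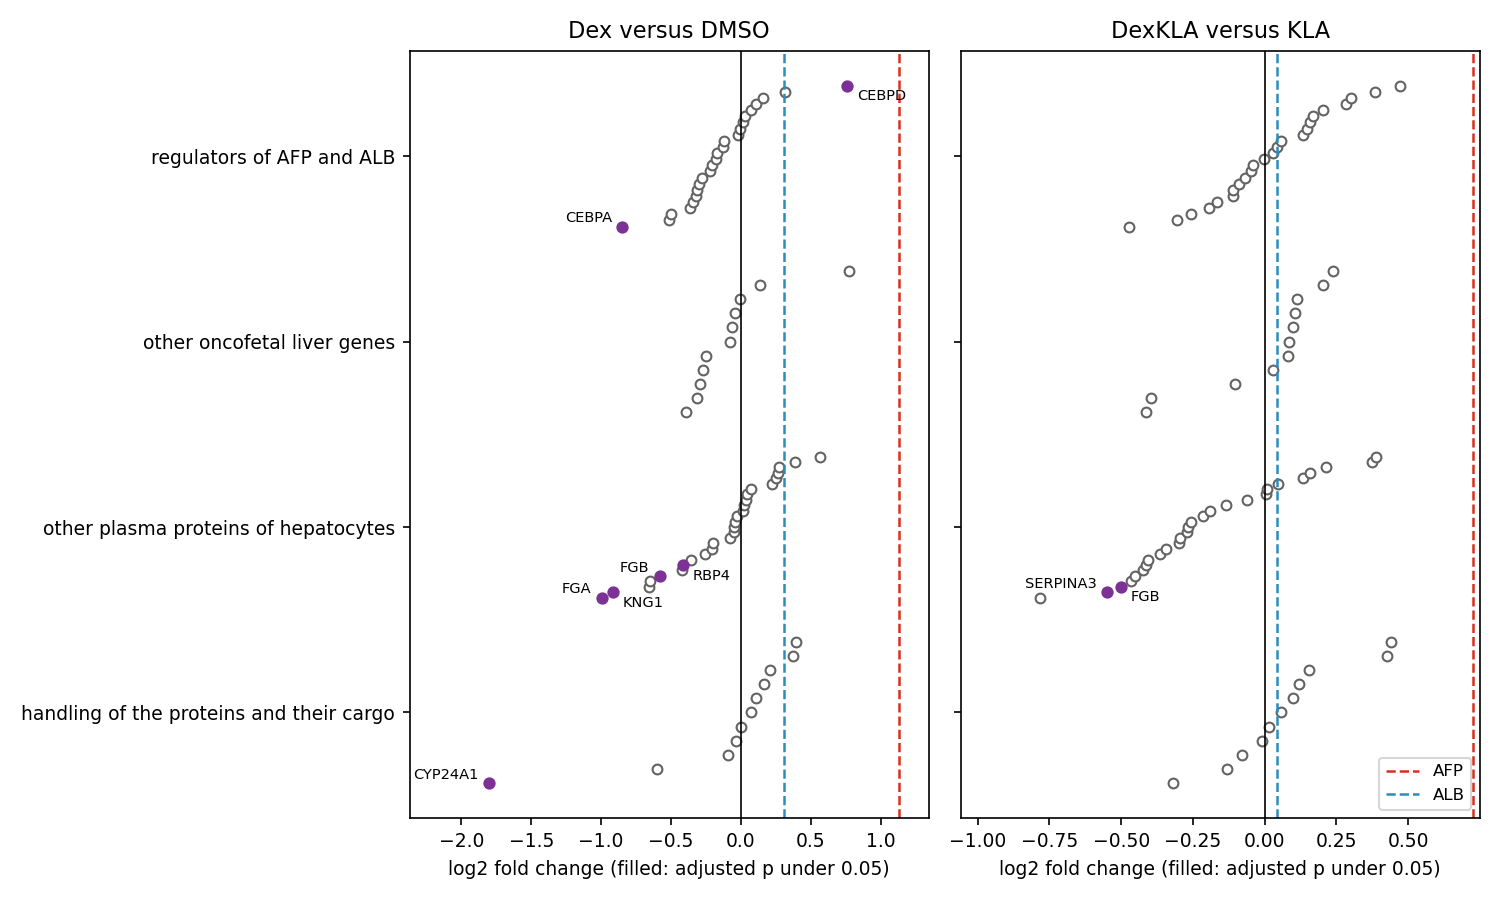
Log2 fold change of each tested gene of 4 gene lists for Dex versus DMSO and DexKLA versus KLA, 1 point per gene, stacked by value within a list. Filled and named points passed an adjusted p under 0.05, and dashed lines mark AFP and ALB. No gene of the lists lies to the right of the AFP line.

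Among 30 other plasma proteins made by hepatocytes, 27 were tested. With Dex over DMSO 0 rose and 4 fell, where 1.22% of all genes rose and 0.835% fell, and the median was −0.05. FGA and FGB, chains of the clotting protein fibrinogen, fell by 0.99 ± 0.12 and 0.58 ± 0.11 (adjusted p = 5.7e-05 and 0.00635). KNG1 (kininogen) fell by 0.92 ± 0.22 and RBP4 (the retinol carrier) by 0.42 ± 0.11, and the RBP4 call was lost in 9 of the 12 fits that leave out 1 library. Leaving out 1 library gave 1 to 7 falls, with 1 without Dex replicate 3 and without DMSO replicate 3. With KLA over DMSO 3 rose and 3 fell, where 7.78% of all genes rose and 5.95% fell, and the median was −0.02. FGA fell by 0.84 ± 0.12, APOB (the core protein of low-density lipoprotein) by 0.70 ± 0.20, APOH (beta-2 glycoprotein) rose by 0.55 ± 0.12 and ORM1 (an acute-phase protein) by 0.37 ± 0.11. Leaving out 1 library gave 0 to 4 rises, with 0 without DMSO replicate 1, and 1 to 5 falls, with 1 without KLA replicate 3 and without DMSO replicate 1 or 3. With DexKLA over DMSO 0 rose and 7 fell, where 2.84% of all genes rose and 1.38% fell, and the median was −0.17. The 4 with the smallest adjusted p were FGA at −1.06, RBP4 at −0.63, FGB at −0.53 and VTN (vitronectin) at −0.56, KNG1 was at −0.91, and 2 to 7 fell when 1 library was left out, with 2 without DMSO replicate 1. With DexKLA over KLA 0 rose and 2 fell, where 0.441% of all genes rose and 0.213% fell, and the median was −0.27 against 0.00 for all genes. These were FGB (−0.50 ± 0.11, adjusted p = 0.025) and SERPINA3 (an acute-phase protease inhibitor, −0.55 ± 0.12, adjusted p = 0.0367). Neither was called without DexKLA replicate 2 or 3, Dex replicate 3 or KLA replicate 1 or 2, and SERPINA3 also lost its call without Dex replicate 1 or any 1 of the 3 DMSO libraries.

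Genes that recycle, take up or metabolise these proteins and their cargo made the last list, of which 11 of 16 were tested. CYP24A1, which breaks down the vitamin D metabolites that GC carries, fell by 1.80 ± 0.27 with Dex over DMSO (adjusted p = 0.000726). It was the only call among the 11, where 1.22% of all genes rose and 0.835% fell. It stood at 12.1 ± 1.62 CPM with DexKLA, 11.0 ± 0.235 with Dex, 9.13 ± 2.55 with KLA and 39.4 ± 18.4 with DMSO (SD, n = 3 each). With KLA over DMSO 1 rose and 2 fell, where 7.78% of all genes rose and 5.95% fell. CYP24A1 fell by 2.08 ± 0.25 and LRP1 (a scavenger receptor) by 0.69 ± 0.20, while B2M, the light chain of the receptor that rescues albumin from breakdown, rose by 0.54 ± 0.12, measured on a transcript with 2 annotated loci. The LRP1 call was lost without KLA replicate 3 or any 1 of the 3 DMSO libraries, and the B2M call without DMSO replicate 1. CYP24A1 also fell with DexKLA over DMSO, by 1.65 ± 0.26, the only call of the list there, where 2.84% of all genes rose and 1.38% fell. Its 3 falls held without each of the 12 libraries. For CYP24A1 the interaction of Dex and KLA was 2.23 ± 0.37 (adjusted p = 0.0449), a call that held in 6 of those 12 fits. With DexKLA over KLA edgeR called 0, where it called 0.653% of all genes, with 2 at an unadjusted p under 0.05 and 0 called by DESeq2.

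The genes whose level followed each member most closely over the 12 libraries differed between the members. Likeness was Pearson's r of log2 CPM among 10055 genes whose log2 CPM averaged at least 3, given as a description, since the points share libraries, depth and scaling. For AFP these were DUSP6 (0.963), a phosphatase of the ERK kinases, SLC26A3 (0.959), an anion exchanger, TM4SF1 (0.949), P4HA1 (0.945) and CPE (0.945). For ALB they were TAX1BP1 (0.983), CCDC152 (0.981), SELENOP (0.979), EIF4A2 (0.978) and UQCRC2 (0.969), with SELENOP the plasma selenium carrier. CCDC152 and SELENOP overlap on opposite strands. Since the strand used in counting is not given, their reads may not have been told apart. For AFM they were SNX8 (0.905), CEBPD (0.892), IGFBP2 (0.890), SLC26A3 (0.884) and AFP itself (0.884). Between ALB and AFP r was 0.758 and between ALB and AFM 0.571.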

How the data were processed

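RNA from 12 HepG2 libraries (3 per group) was analysed from 1 deposited table of 70507 RefSeq transcripts. Per the submitters' processing notes, Trimmomatic, BWA 0.7.17, HOMER 4.10 and hg38 were used, without stated roles. The deposited values came in steps of 0.5 and were taken to be expected counts, since how the authors made them is not given in the sources used here. Values that were not whole made up 32.6% to 36.4% of a library and were rounded. Transcripts without a symbol (406, with 1.71% to 2.55% of a library's total) were left out. The table's Length and Copies columns, deposited by the authors, were used for length and number of loci.

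The edgeR package (4.0.16, R 4.3.3) was used (TMM, filterByExpr with a minimum count of 10, 1 mean per group over all 12 libraries, 8 residual degrees of freedom). The procedure was tested on simulated data with a constant spread for all genes, no outlying library and no length trend. Changes were simulated only in genes with high counts, so that run does not cover these features of the data or low counts such as those of AFM. Depth limits the precision of AFM and GC most. Members, gene lists and tests were chosen with earlier results of these data known. The naming rule gave the 4 members, called neighbours within 500 kb, up to 4 called genes of each list by smallest adjusted p, the 5 genes most alike each tested member, and FKBP5. ZHX2, ZBTB20, NR3C1, GPC3 and IGF2 were named after their values were seen, as were the neighbours that were not called. Alternatives were DESeq2 1.42.0 and its size factors, limma 3.58.1 voom, library size alone, members left out of totals, no filter, at least 50 counts in 3 libraries, the longest transcript, a replicate block, the libraries of a comparison only, depth class, length trend (loess span 0.3) and each library left out. The fits on the 6 shallower or 6 deeper libraries alone were chosen after seeing the data.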

Additional observations from a re-analysis of the deposited data

How the results depend on the processing

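The AFP calls for Dex and DexKLA over DMSO held in all fits tried. The shift of the AFP to ALB ratio with Dex was 0.72 to 0.77 in its alternatives. The longest transcript and the replicate block could not change this shift, so they do not test it. Because the libraries with and without Dex did not overlap in this ratio, leaving out a library could not raise the permutation p above its smallest value. Other results moved. Every count below is a number of genes called, and other values are log2 fold changes. With DESeq2 the counts were 650 for Dex and 920 for DexKLA over DMSO and 705 for the interaction, against 270, 556 and 5 in edgeR, and ALB was called for KLA (0.42) and DexKLA (0.46) over DMSO. DESeq2 size factors gave 0 interaction calls, as did leaving the members out of the totals. Library size alone gave 230 interaction calls, and AFM with DexKLA over DMSO, at 1.68, was no longer called. That scaling moved the median of all genes to −0.11, −0.13 and −0.12 for Dex, KLA and DexKLA over DMSO, with 26.3%, 23.7% and 27.7% of calls higher, against 59.3%, 56.7% and 67.3% with TMM, and AFP stayed higher (1.04, 0.40 and 1.12). Limma voom gave 326 calls for DexKLA over DMSO and 0 for the interaction. ALB was then called for KLA over DMSO (0.42), AFM not for DexKLA over DMSO (1.67), and AFM for DexKLA over Dex turned to −0.020. Without a filter the counts were 907 (Dex over DMSO), 987 (DexKLA over DMSO), 204 (DexKLA over KLA), 12 (DexKLA over Dex) and 1041 (interaction), and calls appeared for AFM with Dex (1.76) and ALB with KLA (0.43) and DexKLA (0.46) over DMSO. AFM had no value at the filter of 50 counts, and DESeq2 gave it no adjusted p in the comparisons with DMSO or for the interaction.

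With the replicate block the counts were 134, 323 and 0 for Dex over DMSO, DexKLA over DMSO and the interaction. The calls of AFP for KLA over DMSO (0.51) and DexKLA over KLA (0.72) and of AFM for DexKLA over DMSO (1.71) were not made, and AFM for DexKLA over Dex turned to −0.11. Deviations of same-numbered libraries correlated at −0.31 to 0.173, so the numbers were not taken to pair the libraries. With only the libraries of a comparison, 1297 genes were called for Dex over DMSO and 38 for DexKLA over KLA. AFP was then not called for DexKLA over KLA (0.72), while ALB with Dex (0.31) and KLA (0.42) and AFM with Dex (1.75) over DMSO were. With depth class as a covariate the counts were 129, 4, 173 and 0 for Dex, KLA and DexKLA over DMSO and the interaction. AFP for KLA over DMSO (0.67) and DexKLA over KLA (0.67) and AFM for DexKLA over DMSO (2.02) were not called. Removing the length trend gave 1064 calls for KLA over DMSO and 2 for the interaction, and ALB was called for DexKLA over DMSO (0.43). In the 6 deeper libraries alone, chosen after seeing the data, DexKLA over KLA gave 0.64 for AFP, not called, and −0.018 for ALB. The cause of these shifts was not tested.

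Leaving out each library in turn gave the following lowest and highest values. Counts ran from 57 to 913 for Dex, 5 to 2331 for KLA and 48 to 1453 for DexKLA over DMSO, 52 to 96 for DexKLA over KLA, 0 to 0 for DexKLA over Dex and 0 to 676 for the interaction. For AFP the values were 1.06 to 1.18, 0.44 to 0.56, 1.12 to 1.41, 0.61 to 0.90, −0.010 to 0.27 and −0.52 to −0.24 in the same order. For ALB they were 0.21 to 0.38, 0.31 to 0.48, 0.36 to 0.58, −0.038 to 0.17, 0.07 to 0.28 and −0.34 to −0.14. For AFM they were 1.34 to 2.16, 0.21 to 1.03, 1.36 to 2.18, 0.84 to 1.50, −0.10 to 0.26 and −1.02 to −0.20. Depth limits AFM, with as few as 2.5 counts in a library, and GC, for which no difference was detectable.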
